A study of Mus musculus with 180 samples.

Results

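Midostaurin is a drug of the staurosporine family that blocks many kinases, FLT3 and KIT among them, and it was given here to mouse bone marrow-derived macrophages (BMDM) at its EC50 for the kinase TBK1. The members were the 3 samples labelled Midostaurin, set against the 6 samples labelled DMSO (the solvent), of 180 RNA-seq samples in all, which covered 58 clinical kinase inhibitors (CKIs) and DMSO. All 9 samples came from wild type BMDM of male C57/BL6 mice, were pretreated for 1 h with Midostaurin or DMSO, and were then kept for 2 h with lipopolysaccharide (LPS) at 10 ng/ml. DMSO samples carry 1 of 2 set labels, 3 samples to a set, and replicates are numbered 1 to 3 within each set and within Midostaurin. No sample without LPS entered the comparison, so every value describes LPS-treated cells and no induction by LPS was measured.

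LPS binds the receptor TLR4, whose adaptor TRIF activates TBK1 and its relative IKKε. TBK1 phosphorylates the transcription factor IRF3, which with NF-κB and AP-1 switches on Ifnb1, the gene for interferon-β. Secreted interferon-β binds IFNAR on the same and neighbouring cells, and the JAK kinases at the receptor then activate STAT proteins, which with IRF9 bind interferon-response elements at interferon-stimulated genes (ISGs). A parallel branch through MyD88 and the IKK complex drives NF-κB and the inflammatory cytokines.

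IRF proteins bind repeats of the core AANNGAAA, which was searched on both strands in the 250 bases before each gene's start. The windows below are RefSeq sequences of build GRCm38.p6 (mm10) and stand for the gene that transmits the signal and for ISGs that did and did not pass the test. Capitals mark matches to the core.

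Ifnb1, chr4:88522795-88523044, minus strand, with 3 matches: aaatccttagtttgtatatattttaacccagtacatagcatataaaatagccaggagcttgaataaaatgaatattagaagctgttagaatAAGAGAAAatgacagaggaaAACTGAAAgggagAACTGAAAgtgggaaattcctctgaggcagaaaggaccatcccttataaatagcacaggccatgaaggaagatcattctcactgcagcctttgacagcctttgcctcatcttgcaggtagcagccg

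Rsad2, chr12:26456453-26456702, minus strand, with 2 matches: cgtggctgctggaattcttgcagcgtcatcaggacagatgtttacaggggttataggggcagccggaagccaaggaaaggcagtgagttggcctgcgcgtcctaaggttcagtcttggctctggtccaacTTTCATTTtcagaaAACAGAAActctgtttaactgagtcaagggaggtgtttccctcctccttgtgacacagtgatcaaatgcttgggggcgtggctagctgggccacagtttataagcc

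Ifit1, chr19:34640639-34640888, plus strand, with 2 matches: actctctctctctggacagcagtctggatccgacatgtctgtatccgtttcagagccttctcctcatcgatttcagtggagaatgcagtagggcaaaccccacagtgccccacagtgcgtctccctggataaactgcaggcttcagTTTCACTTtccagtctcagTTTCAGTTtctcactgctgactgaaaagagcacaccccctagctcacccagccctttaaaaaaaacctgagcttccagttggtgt

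Isg15, chr4:156200819-156201068, minus strand, with 4 matches, of which 3 run into each other: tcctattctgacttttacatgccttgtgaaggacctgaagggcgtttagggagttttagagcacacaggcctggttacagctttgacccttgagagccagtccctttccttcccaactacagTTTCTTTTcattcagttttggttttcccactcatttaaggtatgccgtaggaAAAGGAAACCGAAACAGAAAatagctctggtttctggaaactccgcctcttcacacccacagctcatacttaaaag

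The core is short, and it was found in 17.0% of the 11609 promoter windows that could be matched to tested genes, which covered 9132 of the 12714. Isg15, which did not pass the test, held more matches than Rsad2, which changed most among the ISGs. A match is a description of the letters and not evidence of binding. With a promoter for 71.8% of the tested genes, a comparison of the share between gene groups was void and was not made.

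The deposited values were normalized read counts in exons. They summed to between 9481416 and 11094387 per sample over the 9 samples, and the spacing of the whole numbers gave an estimated 11100000 to 13600000 counted reads per sample, with the 3 Midostaurin samples at 11900000 to 12300000. Mitochondrially encoded transcripts made up 1.27% ± 0.317 (SD, n = 3) with Midostaurin and 1.15% ± 0.438 (SD, n = 6) with DMSO, and their shares overlapped (p = 0.726, two-sided exact permutation test over 84 ways). Of 8 macrophage markers (among them Adgre1, Cd68, Csf1r and Lyz2) none passed the test. In 1 of them, Mertk, the Midostaurin values lay under all DMSO values, as in 2.56% of all genes tested. In 1, Cd14, they lay above them, as in 5.65% of all genes. When the samples were scaled again by the median of ratios, 1 was lower. Their summed values ranged from 133052 to 164421 with Midostaurin and from 99709 to 216444 with DMSO. Csf1r, the receptor for the growth factor that maintains macrophages, read 24999, 25414 and 22940 with Midostaurin and from 24416 to 25418 with DMSO. Summed lymphocyte markers reached at most 4 in any sample and summed erythroid markers at most 2, with Ncr1 and Hba-a1 at 0 in all 9 samples. Summed neutrophil markers ranged from 767 to 1254 with Midostaurin and from 431 to 1292 with DMSO, summed mast cell and basophil markers from 17 to 22 and from 7 to 22, summed dendritic cell markers from 46 to 56 and from 61 to 93, and summed stromal and endothelial markers from 164 to 326 and from 85 to 540. In bulk RNA, fewer cells of a type and less RNA per cell cannot be told apart. No source says whether the 3 biological replicates of a group were cultures of different mice, so p-values measure the spread between samples. In the limma tests that spread was pooled over all 59 groups.

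Midostaurin changed 580 of the 12714 genes tested (mean value of at least 10 over all samples). It raised 335, or 2.63%, and lowered 245, or 1.93%, at an adjusted p below 0.05 (limma on log2(value + 1), Benjamini-Hochberg adjustment). Of these, 97 rose and 109 fell by at least 1 on the log2 scale. Of the 58 CKIs, 12 changed more genes and 17 changed none by the same test. The 3 Midostaurin values lay above all 6 DMSO values for 718 genes (5.65%) and below them for 326 (2.56%). The median log2 difference of all genes tested was 0.11. When the samples were scaled again by the median of ratios, that median was 0.02 and the split turned to 198 genes higher and 350 lower, so 36.1% of the calls were higher in place of 57.8%. The fit pooled the spread of all 59 groups, and with the 9 samples fitted alone 110 genes were higher and 121 lower. The counts also depended on single Midostaurin samples: 199, 203 and 145 genes were higher and 154, 163 and 168 lower without replicates 1, 2 and 3. The calls that held on leaving out each of the 9 samples in turn were 97 higher and 106 lower. Between the 2 DMSO sets no gene passed with limma, and 310 had an unadjusted p below 0.05. With 3 samples to a set, this does not show that the sets were alike.

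**Figure D1:**
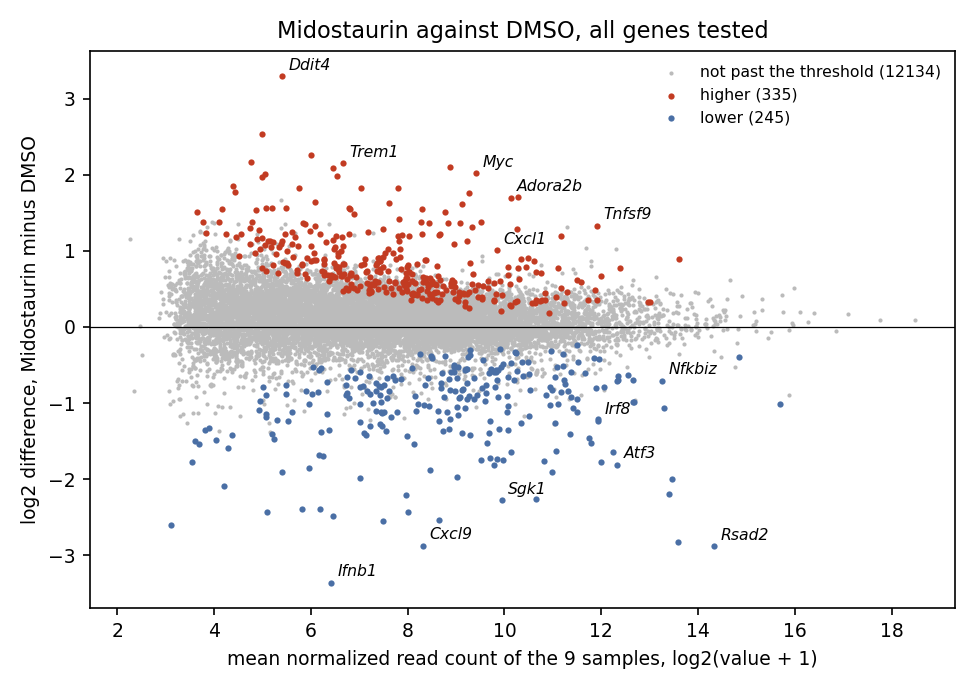
Log2 difference between Midostaurin and DMSO (vertical axis) against the mean normalized read count of the 9 samples (horizontal axis, log2 scale) for the 12714 genes tested; red points are the 335 genes that were higher and blue points the 245 that were lower. Ifnb1 is the lowest point at -3.36, and Rsad2 combines a large fall with a high level. Ddit4, the highest point at 3.30, passed the filter on the mean only through its Midostaurin values.

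Ifnb1 fell more than any other gene tested. Ifnb1 (chr4:88522025-88522794, minus strand, mm10) read 11, 7 and 12 with Midostaurin, and with DMSO it ranged from 75 over a median of 92.5 to 262. All Midostaurin values lay under all DMSO values. On the log2(value + 1) scale the difference was -3.36 (SE 0.40, adjusted p = 1.12e-10, limma), which is 10.3-fold lower. Leaving out each sample in turn gave -3.49 to -3.11, and a pseudocount of 10, which shrinks differences of low genes, gave -2.59. The other 16 type I interferon genes, which encode the interferon-α family and its relatives, were below 10 in every one of the 9 samples, with 11 of them at 0 throughout, and were not tested.

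Among the 59 groups of the screen, Midostaurin had the lowest mean of Ifnb1, at 10.0. Momelotinib, an inhibitor of JAK1 and JAK2 that also binds TBK1, came next at 59.3, followed by Vatalanib at 96.3, while the median of the group means was 204 and Mubritinib and Omipalisib stood highest at 1225 and 1553. The 3 Midostaurin samples lay apart from the 3 Momelotinib samples at 55, 65 and 58, and the difference of -2.48 (SE 0.46) passed the test (adjusted p = 5.26e-04, limma). Against DMSO, whose mean was 122, Ifnb1 with Momelotinib had an estimate of -0.87 and did not pass (adjusted p = 0.414, limma). All 3 Momelotinib values nevertheless lay under all DMSO values, which ranged from 75 to 262. The paper, with its own test of these data, reports that Momelotinib reduced Ifnb1, less so than Midostaurin. The missed threshold thus does not show that Momelotinib left Ifnb1 unchanged. Each CKI was used at its own concentration, so the order is not one at matched doses.

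**Figure D2:**
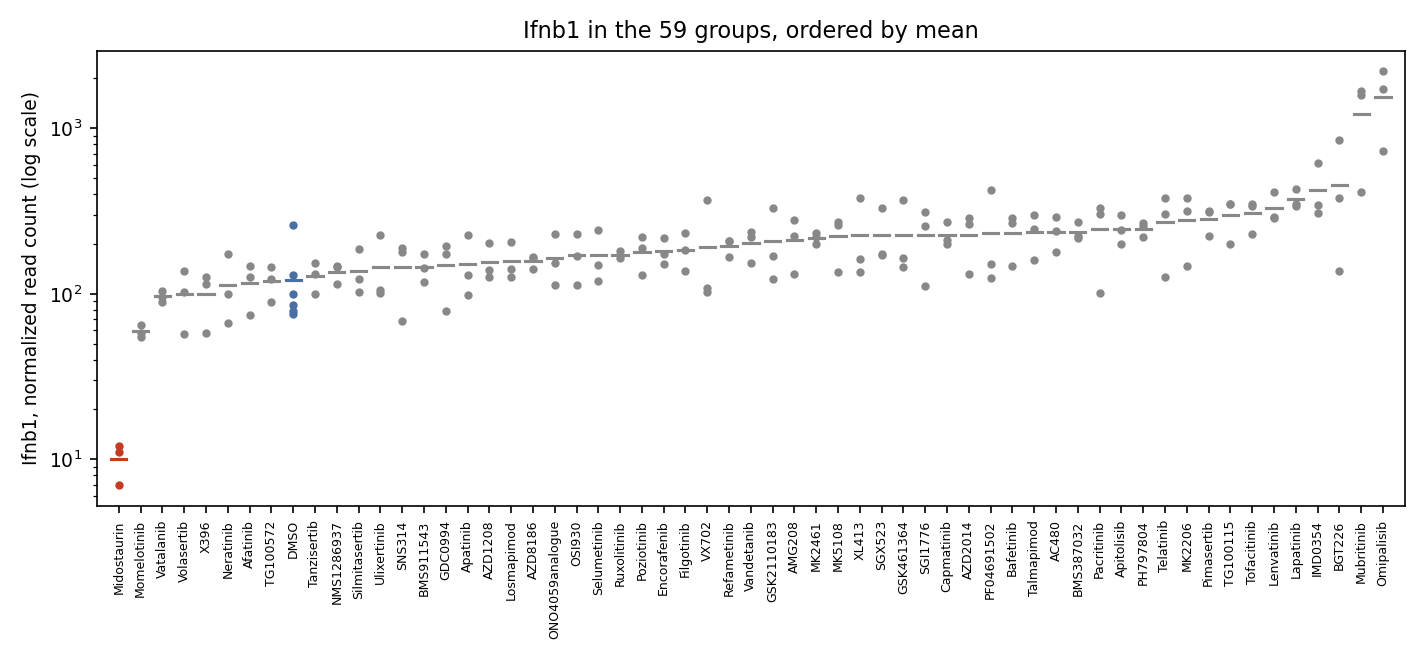
Ifnb1 in all 180 samples (normalized read count, log axis) by group, ordered by the group mean, which is drawn as a bar; each point is a sample, red for Midostaurin and blue for DMSO. The 3 Midostaurin points at 7 to 12 lie below every other sample, and Momelotinib is the nearest group.

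Many ISGs fell, and none rose. Of 72 ISGs listed, 71 were tested, and 23 (32.4%, against 1.93% of all genes) were lower and 48 did not pass. This and the other gene lists were chosen with earlier results of these data known, so their shares are descriptions and not tests. The median log2 difference was -0.73 over the 71 genes, against 0.11 over all genes tested, and 70 of the 71 estimates were below 0. In 29 of them (40.8%, against 2.56% of all genes) the Midostaurin values lay under all DMSO values. The summed value of the list was 139285, 108201 and 147700 with Midostaurin and from 192337 to 398151 with DMSO. The count of 23 rose to 26 with median of ratios scaling and was 15 without Midostaurin replicate 2. Within DMSO, the third replicates of both sets had the lowest sums, at 192337 and 212293, and both still exceeded every Midostaurin sample.

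Among the ISGs, Rsad2 fell most. Rsad2 (chr12:26442743-26456452, minus strand), which encodes viperin, a radical SAM enzyme that blocks viral replication, read 4672, 3097 and 3921 with Midostaurin and from 18749 over 32738.5 to 36278 with DMSO, a difference of -2.88 (SE 0.29, adjusted p = 3.34e-14). Cmpk2, its neighbour on chromosome 12 and a nucleotide kinase of mitochondria, read 2432, 2170 and 2024 against 10614 to 36530 and differed by -2.83 (SE 0.39, adjusted p = 1.6e-08). Neither gene had overlapping groups. The IFIT genes, whose proteins bind foreign RNA, lie together on chromosome 19. Ifit2 fell by 2.19 (SE 0.36), Ifit1 by 2.00 (SE 0.41), Ifit3b by 1.91 and Ifit3 by 1.78 on the log2 scale, with adjusted p between 2.83e-06 and 3.99e-04 in limma. Ifit1bl1 fell by 2.54, from a DMSO median of 589 to 65, 75 and 139. Members of this family resemble each other in sequence, so reads may have been shared among them and the single values are uncertain. Mx1, a dynamin-like antiviral GTPase, fell by 1.76 (SE 0.39, adjusted p = 0.00129). Iigp1, of the immunity-related GTPases, fell by 2.21 (adjusted p = 0.00603, 0.0594 without Midostaurin replicate 2 and 0.0582 with DMSO set 1 alone), and Tgtp1 and Tgtp2, near-identical copies that cannot be told apart, by 1.75 and 1.74, with adjusted p of 0.0102 and 0.0104 that rose to between 0.0502 and 0.0956 without Midostaurin replicate 2 or 3 or with DMSO set 1 alone as the reference.

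Ifih1, Oasl1 and Irf1 were also among the ISGs that fell. Ifih1, the RNA sensor MDA5, read 1564, 1533 and 1453 against 2953 to 7149 with DMSO and fell by 1.52 (SE 0.25, adjusted p = 2.14e-06). Oasl1, an OAS-like inhibitor of Irf7 translation, fell by 1.65 (SE 0.21, adjusted p = 1.52e-09). Irf1, a transcription factor induced by interferons and NF-κB, read 6726, 5393 and 5398 against 10687 to 14275, 2.09-fold lower (log2 -1.06, SE 0.19, adjusted p = 1.57e-05). All 3 genes had groups that did not overlap.

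The secreted products differed among themselves. Cxcl9, a ligand of CXCR3, read 69, 28 and 80 against 195 to 759 and fell by 2.87 (SE 0.69, adjusted p = 0.00354), with an adjusted p of 0.0816 without Midostaurin replicate 2. Tnfsf10, the death ligand TRAIL, read 48, 54 and 71 against 102 to 579 and fell by 2.43 (SE 0.47, adjusted p = 1.11e-04). Cxcl10, another ligand of CXCR3, read 39423, 26285 and 49657 against 56043 to 112277. Its groups did not overlap and its estimate of -0.90 (SE 0.30) missed the threshold at an adjusted p of 0.0619, and passed it at 0.0279 after median of ratios scaling. Ccl5 had an estimate of -0.40 (SE 0.31, adjusted p = 0.565) with overlapping groups.

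Other classical ISGs did not pass. Isg15, a ubiquitin-like modifier, read 1378, 956 and 1414, within the DMSO range of 1096 to 3901 but for 1 sample, with an estimate of -0.56 (SE 0.51, adjusted p = 0.644). The estimates were -0.42 (SE 0.21) for Irf7, the factor that amplifies interferon-α genes, -0.14 (SE 0.30) for Oas1a, an antiviral synthetase, and 0.29 (SE 0.29) for Bst2, or tetherin, the 1 estimate above 0. The 48 genes not called had a median of -0.53, and the estimate farthest from 0 among them was -1.12.

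**Figure D3:**
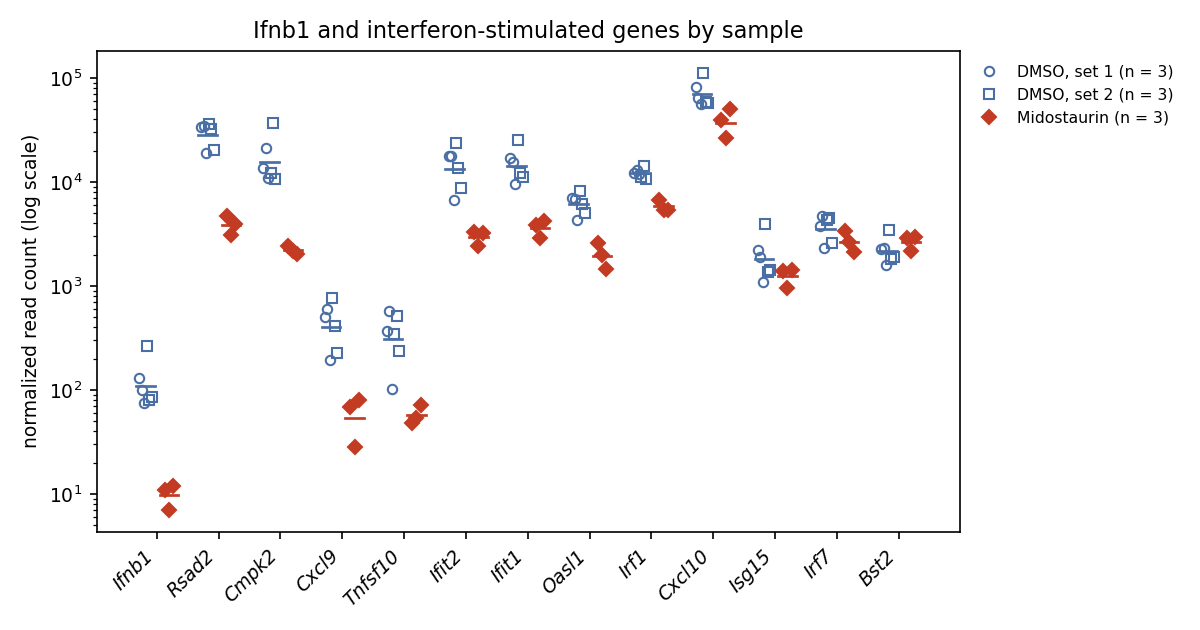
Normalized read counts (log axis) of Ifnb1 and 12 interferon-stimulated genes in the 3 Midostaurin samples (red diamonds) and the 6 DMSO samples (blue circles for set 1, blue squares for set 2); bars are means on the log2(value + 1) scale. The groups are separate from Ifnb1 to Cxcl10 and overlap for Isg15, Irf7 and Bst2.

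The transcripts of the kinases and adaptors upstream of Ifnb1 did not pass the test. None of the 17 genes of the TLR4 to TBK1 and IRF3 list was called, and their median difference was 0.08. Tbk1 itself read 988, 1072 and 1118 against 1057 to 1312, an estimate of -0.20 (SE 0.09, adjusted p = 0.216) that passed at 0.0361 with median of ratios scaling. Ikbke, which encodes IKKε, had an estimate of 0.08 (SE 0.25) and Irf3 one of 0.36 (SE 0.15, adjusted p = 0.191). Tlr4 had an estimate of 0.08 (SE 0.26) and its co-receptor Cd14 one of 0.61 (SE 0.23, adjusted p = 0.121), with all 3 Midostaurin values, 34853, 31147 and 34736, above the highest DMSO value of 30714. With median of ratios scaling the estimates of Ikbke and Tlr4 changed sign, to -0.02 and -0.01. Transcript levels do not measure the activity of these kinases.

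Of the 12 genes of the interferon receptor and JAK-STAT list, 1 was lower (8.33%, against 1.93% of all genes) and none was higher, with a median of -0.05. Ifnar1, a chain of the receptor, had an estimate of 0.05 (SE 0.11), which became -0.04 with median of ratios scaling. Socs1, a feedback inhibitor of JAK kinases, varied widely, with 923, 1333 and 476 against 618 to 5735, and its estimate of -1.28 (SE 0.55) had an adjusted p of 0.204.

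The list of inflammatory cytokines and chemokines went both ways. It also holds inflammatory enzymes, acute phase genes and F3, so its shares are not those of cytokines and chemokines alone. Of 28 tested, 5 were higher (17.9%, against 2.63% of all genes) and 5 lower (17.9%, against 1.93%), with a median of -0.03. Ccl2, which attracts monocytes, read 4316, 3159 and 4319 against 6977 to 8431 and fell by 0.98 (SE 0.12, adjusted p = 5.12e-10). Ccl4, a chemokine for monocytes and T cells, read 35952, 22671 and 36569 against 53159 to 83174 and fell by 1.02 (SE 0.20, adjusted p = 1.25e-04). F3, or tissue factor, the starter of coagulation, read 24, 19 and 18 against 85 to 151 and fell by 2.49 (SE 0.32, adjusted p = 3.34e-09). In all 3 the groups did not overlap.

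Tnf and Il6, the leading inflammatory cytokines, passed narrowly. Tnf read 3171, 3320 and 5574 against 6668 to 8932, a difference of -0.99 (SE 0.31, adjusted p = 0.0399), and Il6 read 218, 148 and 242 against 337 to 757, a difference of -1.36 (SE 0.43, adjusted p = 0.0471). Both sets of values were separate. The call for Tnf was lost on leaving out any of 6 of the 9 samples (adjusted p from 0.0524 to 0.226) and the call for Il6 on leaving out any of 7 (0.0758 to 0.211), and both were lost with either DMSO set alone (0.106 to 0.192), without the filter on low values (0.0696 and 0.0797) and, for Il6, without the variance trend (0.0501).

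Cxcl1 and Cxcl3, which attract neutrophils through CXCR2, rose. Cxcl1 read 1666, 1029 and 1488 against 622 to 786 (log2 1.01, SE 0.19, adjusted p = 7.79e-05), and Cxcl3 837, 834 and 959 against 313 to 607 (0.84, SE 0.20, adjusted p = 0.00421, 0.0553 without Midostaurin replicate 3 and 0.0739 with the 9 samples fitted alone). Tnfsf9, the ligand of 4-1BB, read 7140, 5283 and 6764 against 1884 to 4131 and rose by 1.33 (SE 0.31, adjusted p = 0.00284). The other 2 were the acute phase genes Saa3 (log2 1.71, SE 0.49, adjusted p = 0.0199) and Lcn2 (log2 1.63, SE 0.43, adjusted p = 0.00869). Without Midostaurin replicate 3 the adjusted p was 0.277 for Saa3 and 0.112 for Lcn2, and without replicate 1 it was 0.0667 for Saa3. With DMSO set 1 or set 2 alone it was 0.109 and 0.0664 for Saa3, and with set 2 alone 0.0605 for Lcn2. Il1b, Il10 and Il12b did not pass, with estimates of 0.49 (SE 0.41), 0.29 (SE 0.44) and -0.43 (SE 0.29).

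Of 22 tested genes of the NF-κB system, 3 were higher (13.6%, against 2.63% of all genes) and 2 lower (9.09%, against 1.93%), and the median was 0.06. Nfkbia, the inhibitor IκBα that NF-κB itself induces, read 37817, 41829 and 37136 against 32236 to 41142, and its estimate of 0.08 (SE 0.09, adjusted p = 0.736) became -0.02 after median of ratios scaling. Nfkbiz, a nuclear IκB protein that helps transcribe secondary genes such as Il6, read 6449, 7408 and 6670 against 9500 to 15380 and fell by 0.71 (SE 0.11, adjusted p = 7.73e-07). Zc3h12a, the RNase Regnase-1 that degrades cytokine transcripts, read 1895, 2027 and 1852 against 784 to 1331 and rose by 0.78 (SE 0.16, adjusted p = 2.58e-04). Tnip1, a binding partner of the inhibitor A20, rose by 0.62 (SE 0.16, adjusted p = 0.00926, 0.125 without Midostaurin replicate 3 and 0.0628 with DMSO set 2 alone). The calls for Rel (log2 -0.42, adjusted p = 0.0432), an NF-κB subunit, and Bcl3 (0.65, adjusted p = 0.0266), another nuclear IκB protein, were lost on leaving out any of 7 and any of 5 of the 9 samples, at adjusted p from 0.0688 to 0.163 and from 0.0508 to 0.182. With the 9 samples fitted alone their adjusted p was 0.448 and 0.0957, and with DMSO set 1 alone 0.549 and 0.0616; without the filter on low values it was 0.0715 for Rel, and with DMSO set 2 alone 0.149 for Bcl3. With median of ratios scaling 2 genes of the list were higher, Bcl3 having an adjusted p of 0.0882.

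Of 27 tested genes of AP-1, EGR and MAPK feedback, most of them immediate early genes, 6 were higher (22.2%, against 2.63% of all genes) and 2 lower (7.41%, against 1.93%), with a median of 0.25. The list also holds the NR4A genes, Myc and Phlda1, so its shares are not those of AP-1, EGR and MAPK feedback alone. No EGR gene and no gene of the MAPK feedback families DUSP, SPRED and SPRY was called. Nr4a1, an orphan nuclear receptor, read 172, 231 and 132 against 26 to 56 and rose by 2.09 (SE 0.32, adjusted p = 7.73e-07). Myc, a transcription factor of growth, read 1382, 1492 and 1226 against 212 to 398 and rose by 2.02 (SE 0.22, adjusted p = 5.98e-12). Phlda1 read 1126, 1200 and 596 against 170 to 267 and was 4.27-fold higher (log2 SE 0.30, adjusted p = 7.45e-08). The 3 genes shared non-overlapping groups, and Myc and Nr4a1 each had their highest mean among the 59 groups with Midostaurin.

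The AP-1 subunits differed in sign. Fosl2 read 1294, 1172 and 1100 against 259 to 834 and rose by 1.38 (SE 0.31, adjusted p = 0.00129), and the stress-response gene Ier3 rose by 0.87 (SE 0.20, adjusted p = 0.00129). Fosb read 70, 135 and 41 against 17 to 40 and rose by 1.56 (SE 0.44, adjusted p = 0.0171), and its adjusted p was 0.0657 and 0.228 without Midostaurin replicates 1 and 2. The mean of Fosb was 82 with Midostaurin, 25.2 with DMSO and 64.0 over all 180 samples, so DMSO stood well below the screen as a whole. Fos fell to 97, 105 and 118 from 144 to 182, by 0.64 (SE 0.15, adjusted p = 0.003, and 0.0503 without Midostaurin replicate 1). With the 9 samples fitted alone these 4 calls were lost, at adjusted p of 0.0501 for Fosl2, 0.0821 for Ier3, 0.0559 for Fosb and 0.0619 for Fos, and Fosb had 0.136 with DMSO set 2 alone. Atf3, a stress-induced factor of the ATF family, read 1955, 1972 and 1796 against 5695 to 8642 and fell by 1.81 (SE 0.13, adjusted p = 2.38e-23). The mean of Atf3 was the lowest of the 59 groups.

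Sgk1 had the smallest adjusted p of all genes tested. Sgk1 (chr10:21882184-21999903, plus strand), a kinase relative of AKT that is activated downstream of mTORC2, read 258, 267 and 301 with Midostaurin and between 1259 and 1479 with DMSO, a difference of -2.28 (SE 0.13, adjusted p = 1.02e-32). The spread within each group was small beside the gap, and the mean was the lowest of the 59 groups, with Filgotinib next at 593 and Momelotinib at 686. Hhex, a homeobox factor of blood cell development, read 32, 48 and 35 against 145 to 502 and fell by 2.55 (SE 0.34, adjusted p = 8.87e-09). Cd69, an early activation antigen that retains leukocytes in tissue, read 387, 309 and 718 against 1507 to 2687 and fell by 2.27 (SE 0.48, adjusted p = 5.42e-04). The adjacent and similar serine protease inhibitor genes Serpina3g and Serpina3f both fell by 2.39, and their adjusted p of 0.0047 and 0.0021 became 0.0594 and 0.0505 without Midostaurin replicate 2.

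Tnfrsf9, Trem1 and Tnfsf14 were among the 15 largest rises. These were taken from called genes without overlap and with a mean of at least 50 over the 9 samples. Tnfrsf9, Trem1, Nr4a1, Id1, Bmf and Timp1 reached that mean only through Midostaurin, their DMSO means being 27.8 to 46.8. Tnfrsf9, the receptor 4-1BB whose ligand gene rose too, read 118, 111 and 171 against 17 to 40 and rose by 2.26 (SE 0.44, adjusted p = 1.11e-04). Trem1, a receptor that amplifies inflammatory signals, read 168, 222 and 231 against 25 to 57 and rose by 2.15 (SE 0.29, adjusted p = 7.19e-09). Tnfsf14, the cytokine LIGHT, read 521, 410 and 344 against 66 to 161 and rose by 1.82 (SE 0.25, adjusted p = 1.82e-08). Neutrophils also express Trem1 and Lcn2. Of the 8 neutrophil markers tested none was called, with 7 estimates above 0 and a median of 0.53, and their summed levels overlapped as given above; their part in these differences was not tested.

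Ptges, Adora2b and Sphk1 also belonged to that group of rises. Ptges, the inducible prostaglandin E synthase, read 1074, 1107 and 1309 against 254 to 398 and rose by 1.76 (SE 0.27, adjusted p = 7.36e-07). Adora2b, the low-affinity adenosine receptor A2B, read 1952, 2526 and 1780 against 540 to 768 and rose by 1.70 (SE 0.23, adjusted p = 1.34e-08). Sphk1, a kinase that makes sphingosine 1-phosphate, rose by 1.56 (SE 0.37, adjusted p = 0.00316, and 0.0632 without Midostaurin replicate 1). Adora2b and Trem1 were highest with Midostaurin among the 59 groups, and Momelotinib had the second highest mean of Adora2b at 1373. For Trem1, DMSO had the lowest mean of the 59 groups at 46.8. The median of the group means was 81, against 207 with Midostaurin, so part of the rise of Trem1 reflects a low reference.

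The remaining genes among the 15 largest rises had varied roles. B3gnt7, a glycosyltransferase, read 259, 218 and 280 against 62 to 76 and rose by 1.83 (SE 0.28, adjusted p = 8.6e-07). Bmf, a BH3-only protein that promotes apoptosis, rose by 1.83 (SE 0.30, adjusted p = 3.3e-06). Id1, an inhibitor of helix-loop-helix factors, rose by 1.99 (SE 0.47, adjusted p = 0.00256) and Timp1, an inhibitor of metalloproteinases, by 1.65 (SE 0.43, adjusted p = 0.00826). Id1 had an adjusted p of 0.0667 without Midostaurin replicate 3 and Timp1 one of 0.0665 without replicate 1, and with DMSO set 2 alone they had 0.0625 and 0.0613. Timp1 lies within Syn1, which runs on the other strand.

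**Figure D4:**
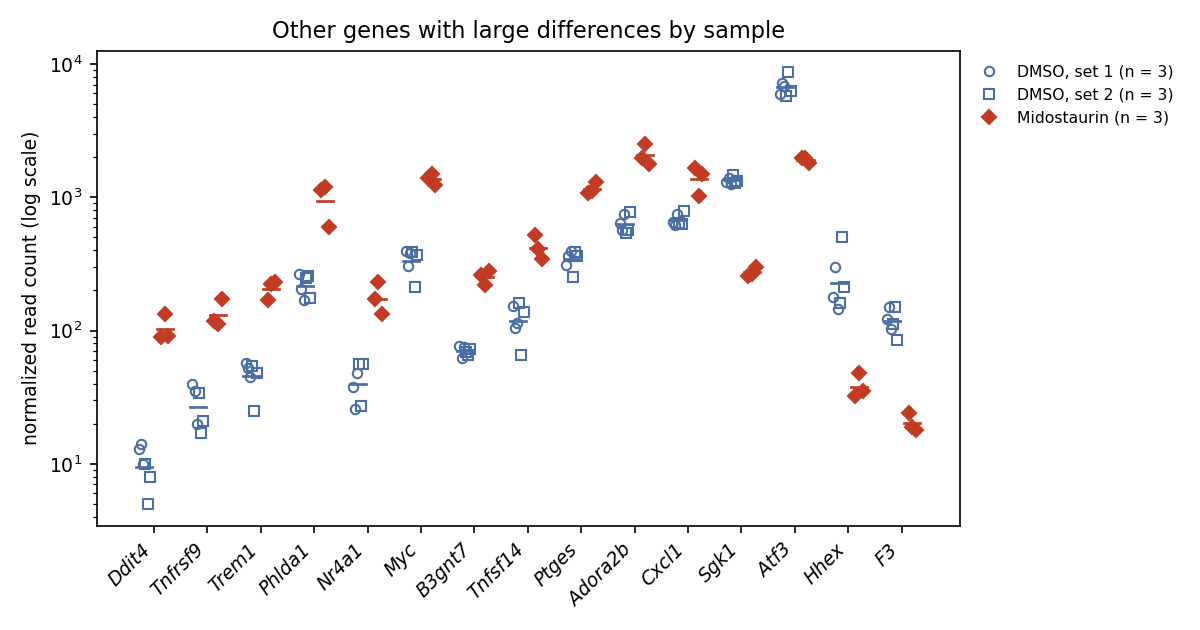
Normalized read counts (log axis) of 15 further genes in the 3 Midostaurin samples (red diamonds) and the 6 DMSO samples (blue circles for set 1, squares for set 2); bars are means on the log2(value + 1) scale. No gene shown has overlapping groups, which was a condition for choosing most of them, with 11 higher and 4 (Sgk1, Atf3, Hhex and F3) lower with Midostaurin.

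Of 22 stress, p53 and NRF2 targets, 4 were higher (18.2%, against 2.63% of all genes) and none lower, with a median of 0.19. Ddit4 (chr10:59949675-59951770, minus strand), the mTORC1 inhibitor REDD1, had the largest estimate of any gene tested: 89, 133 and 91 against 5 to 14, a rise of 3.30 (SE 0.56, adjusted p = 6.89e-06), or 2.51 with a pseudocount of 10. Its mean of 104 was the highest of the 59 groups, ahead of Momelotinib at 22.7. The mean over all samples was 10.1, just over the filter of 10, and the median of the group means was 8. Ddit4 was thus tested only because of its high Midostaurin values, so its place among the 4 higher genes lends no support to the share of 18.2%. Gadd45a, a growth arrest gene, rose by 1.12 (SE 0.26, adjusted p = 0.0021, and 0.0599 without Midostaurin replicate 1). Slc7a11, the cystine transporter, rose by 0.80 (adjusted p = 0.0108) and Atf4, the factor that induces it, by 0.35 (adjusted p = 0.0092). Leaving out any of 3 samples took the adjusted p of Slc7a11 to 0.0643 to 0.114, leaving out either of 2 took that of Atf4 to 0.0577 and 0.246, and median of ratios scaling took Atf4 to 0.0889. With DMSO set 1 alone their adjusted p was 0.0766 and 0.0892, and with the 9 samples fitted alone 0.331 and 0.298.

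Of 27 homeostatic macrophage genes, 1 was higher (3.7%, against 2.63% of all genes) and 2 were lower (7.41%, against 1.93%). Irf8, a lineage factor that is also induced by interferons, read 1893, 2257 and 1889 against 3680 to 7541 and fell by 1.23 (SE 0.31, adjusted p = 0.00517). Its mean was 2013 with Midostaurin, 1823 with Momelotinib and 4875 with DMSO. Over all 180 samples it was 2713, so DMSO stood well above the screen as a whole. P2ry6, a receptor for UDP, rose by 0.67 (SE 0.15, adjusted p = 0.00129), and Rgs2, a brake on G protein signalling, fell by 1.11 (adjusted p = 0.0199), a call lost on leaving out any of 3 samples (0.0641 to 0.247), with either DMSO set alone (0.0984 and 0.0664) and with the 9 samples fitted alone (0.114). Of 17 genes of MHC class I presentation 1 was lower (5.88%), and the peptide transporter gene Tap1 fell by 0.84 (adjusted p = 0.00589, 0.109 without Midostaurin replicate 3, 0.0515 with DMSO set 1 alone and 0.113 with the 9 samples fitted alone). Of 14 genes of glycolysis and hypoxia 1 was higher (7.14%), and the glucose transporter gene Slc2a1 read 1773, 1469 and 1895 against 920 to 1135 and rose by 0.77 (SE 0.12, adjusted p = 6.69e-07). None of 24 genes of lysosomes and phagocytosis, 19 of sterol and fatty acid synthesis and 13 encoded in mitochondria was called, with medians of 0.05, -0.01 and 0.33. Of 11 tested genes of kinases that bind Midostaurin 1 was higher (9.09%), and the Src-family kinase gene Fgr rose by 1.14 (SE 0.28, adjusted p = 0.0043), and Flt3, which encodes a main target of the drug, was at or below 20 in every sample.

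**Figure D5:**
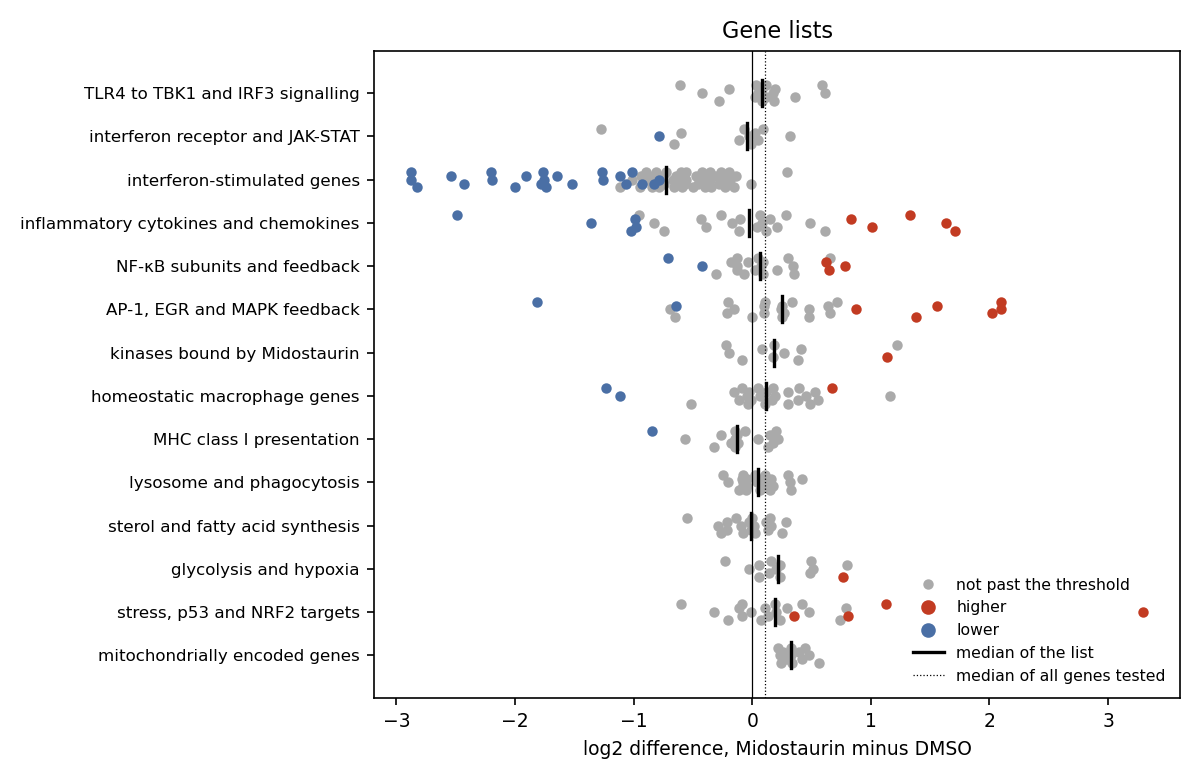
Log2 difference between Midostaurin and DMSO (horizontal axis) of each tested gene in 14 gene lists; red and blue points passed the test as higher and lower, grey points did not, the black bar is the list's median and the dotted line the median of all genes tested, 0.11. The interferon-stimulated genes reach from -2.88 to 0.29 with a median of -0.73, and no other list drawn has a median below -0.13.

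Midostaurin and Momelotinib, the 2 CKIs with the lowest Ifnb1, differed directly in 21 genes that were higher with Midostaurin (0.165% of those tested) and 16 that were lower (0.126%). Besides Ifnb1, the lower genes included Sgk1 by 1.31 (SE 0.15, adjusted p = 3.55e-11), Ccl2 by 0.93 (SE 0.14, adjusted p = 4.65e-06) and Atf3 by 0.82 (SE 0.15, adjusted p = 4.57e-04), all on the log2 scale. Ccl2 with Momelotinib, at a mean of 7446, was near the DMSO mean of 7693, against 3931 with Midostaurin. Of the 71 ISGs, 2 were lower than with Momelotinib, Rsad2 (-1.53, SE 0.33, adjusted p = 0.00703) and Oasl1 (-1.23, SE 0.24, adjusted p = 0.00158). Phlda1 (1.83, SE 0.35), B3gnt7 (1.52, SE 0.33), Myc (1.34, SE 0.26) and Tnfsf14 (1.19, SE 0.29) were higher, with adjusted p between 7.77e-04 and 0.0272. Irf1 had an estimate of -0.26 (SE 0.22) against Momelotinib and did not pass, which does not show that the levels were equal.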

How the data were processed

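The deposited table holds normalized counts of reads in exons of 45070 mm10 genes (a score rounded to whole numbers). Per the study's methods and the submitters' processing notes, the authors mapped SMART-seq2 reads with TopHat2 2.1.1, removed blacklisted regions with bedtools 2.29.2, counted reads per curated RefSeq gene in Bioconductor, and scaled samples on invariant genes before their own DESeq2 tests in R 3.6.2. Reads were counted without a stated strand, so overlapping genes on opposite strands cannot be told apart, and scaling assumes that the invariant genes stay level.

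From these scores, log2(value + 1) was fitted with limma 3.58.1 (R 4.3.3) over all 59 groups with a variance trend, for 12714 genes with a mean of at least 10. Adjusted p below 0.05 (Benjamini-Hochberg) was called. The values were rounded after scaling, so no count test was run. Simulated data with 200 changed genes returned 31.3%, 67.2% and 97.0% of log2 changes of 0.5, 1 and 2, with 5 false calls. The simulated noise was independent between samples and equally wide in every group. It thus lacked the correlation between same-numbered samples, and the real rates may differ. The depth estimate recovered 7 of 8 simulated scales to within 0.1%.

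The 22 gene lists and the members were chosen with earlier results of these data known. Named genes were list members and the 15 largest rises and 15 largest falls among called genes whose groups did not overlap and whose mean over the 9 samples was at least 50. Groups came from the labels. Alternatives covered pseudocounts of 0.5 and 10, filters, scaling, the reference set, the samples fitted, the variance trend, a replicate block and leaving out each sample. Some members of the lists are counted in them but not reported here by name.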

Additional observations from a re-analysis of the deposited data

Results flagged for a closer look

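The 6 DMSO values were examined for a lone sample in each gene named in the text and in the mitochondrial share, on the log2 scale, where chance alone gives about 1 in 20. For Trem1, DMSO set 2 replicate 2 read 25 and the others 45 to 57, a gap of 0.711 of the whole range. For Ifnar1, the same sample read 4866 and the others 3459 to 3931, a gap of 0.6252 of the range. Both gaps exceed Dixon's 95% limit for 6 samples, Ifnar1 barely. Of 93 sets of DMSO values examined these 2 were flagged, which is not more than chance alone gives.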

How the results depend on the processing

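The Ifnb1 difference kept its call under every alternative, at -3.51 to -2.59. The genes higher with Midostaurin numbered 198 with median of ratios scaling, 189 and 201 with DMSO set 1 or set 2 alone as the reference, 110 with the 9 samples fitted alone, 97 with a log2 difference of at least 1, and 145 to 372 on leaving out each sample. The genes lower numbered 139 with DMSO set 1 alone, 121 with the 9 samples alone, 109 with a log2 difference of at least 1, and 154 to 292 on leaving out each sample. The ISGs lower ranged from 15 to 27 on leaving out each sample, 15 being without Midostaurin replicate 2. Fewer samples or a stricter limit went with most lower counts; the cause of the change with scaling was not tested.

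With the replicate block, 589 genes were higher and 346 lower, 29 ISGs were lower and Ifnb1 stayed at -3.36, and with the mitochondrial share added 711 were higher and 399 lower. Same-numbered samples deviated together with correlations of 0.0890 to 0.553 over 9 pairs, 8 of them over 0.1, and 8 of 9 samples correlated best with their own number, a hint from the data and not the design. With the block, Cd14 and Cxcl10 passed at adjusted p of 0.0275 and 0.00757 in limma.

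Estimates near 0 changed sign. Median of ratios scaling gave -0.044 for Ifnar1, -0.016 for Ikbke, -0.019 for Nfkbia and -0.013 for Tlr4, and DMSO set 2 alone gave -0.052 for Tlr4. Leaving out each sample gave -0.061 to 0.012 for Csf1r, -0.025 to 0.19 for Ikbke, -0.12 to 0.24 for Tlr4 and -0.0579 to 0.284 percentage points for the mitochondrial share. Of 819 other values of named genes on leaving out 1 sample, 756 kept their direction and side of the threshold, 57 lost the call and 6 reversed, and of 813 under the other settings 763 kept both, 43 lost the call, 2 gained it and 5 reversed. At this depth, genes with values near 10 carry large errors, and small changes can be missed.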

Other observations

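Several cell surface receptors outside the lists changed, and these genes were chosen after their values were seen. Gpr35, an orphan-type receptor of leukocytes, read 64, 66 and 74 with Midostaurin and from 5 to 17 with DMSO, a rise of 2.54 (SE 0.38, adjusted p = 3.43e-07, limma), or 1.87 with a pseudocount of 10. Gpr183, the oxysterol receptor EBI2, read 710, 717 and 803 against 148 to 490 and rose by 1.36 (SE 0.34, adjusted p = 0.00494); it lies within Ubac2, on the other strand. The sphingosine 1-phosphate receptors moved apart: S1pr1 read 760, 608 and 545 against 155 to 433 and rose by 1.22 (SE 0.25, adjusted p = 4.73e-04, and 0.0709 with the 9 samples fitted alone), and S1pr2 read 371, 506 and 486 against 934 to 2073 and fell by 1.64 (SE 0.22, adjusted p = 1.21e-08).

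Acvr1b and Id3 rose too. Acvr1b, an activin receptor, read 625, 541 and 486 against 96 to 257 and rose by 1.54 (SE 0.27, adjusted p = 9.98e-06), and Id3, a relative of Id1 and like it a common target of BMP signals, read 2025, 1749 and 2260 against 579 to 1035 and rose by 1.29 (SE 0.24, adjusted p = 6.92e-05). Il4ra, the receptor chain for interleukin-4, rose by 0.89 (SE 0.25, adjusted p = 0.0152), with an adjusted p of 0.103 and 0.0753 without Midostaurin replicates 1 and 2, of 0.0967 and 0.0524 with DMSO set 1 or set 2 alone and of 0.0722 after median of ratios scaling.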
